A study of Mus musculus with 5 samples.

Results

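Sox2, Klf4, Hmga2, Hmga1, Myc and Snai2 are genes of transcription regulators tied to stem cell self-renewal and to the mesenchymal state. They were taken by gene symbol, and all 6 were found among the 12621 genes of the normalised count table. The table came from poly(A) RNA sequencing of mesenchymal stem cells of mice, plastic-adherent stroma cells able to turn into bone, cartilage or fat. Wild-type cells (2 libraries) were set against cells with a knockout of TSG-6, a secreted hyaluronan-binding protein encoded by Tnfaip6 (3 libraries). Every sample of either genotype carries the strain label Balb/c (C.129S6), and no treatment, age or time was given. Column names mark the wild-type libraries as C1 and SE and the knockout libraries as C1, C2 and SE, suffixes whose meaning the labels do not state. The design text gives 2 biological replicates per cell type. Whether any 2 libraries stem from different animals or dishes is not stated, and p-values therefore cover only the library-to-library spread, which may be technical.

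SOX2 is a high mobility group box protein that holds stem cells in the pluripotent state together with OCT4 and NANOG, and KLF4 is a zinc finger factor that joins it at many of the same enhancers. With OCT4 and MYC they form the classic set of factors that turns fibroblasts into induced pluripotent cells. HMGA1 and HMGA2 are small architectural proteins whose AT-hooks bind the minor groove of DNA and bend it. They are abundant in embryos and tumours, and HMGA2 messenger RNA is a target of the let-7 microRNAs. MYC, with its partner MAX, binds E-boxes and drives ribosome production and cell growth. SNAI2, also called SLUG, is a zinc finger repressor of epithelial genes that marks neural crest and mesenchymal cells and acts in bone marrow stroma, where it has been tied to fat cell formation.

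Knockout cells had less messenger RNA of 5 of the 6 genes and more of the sixth. Sox2 went from a middling level to no read at all, Hmga1 fell 25.1-fold (a size that is uncertain, since part of its sequence occurs elsewhere), Hmga2 fell 5.74-fold, Klf4 fell 5.16-fold and Myc fell 2.57-fold, while Snai2 rose 5.47-fold. All 6 passed the test (limma on log2 values, Benjamini-Hochberg adjusted p under 0.05), where 34.3% of the 12484 genes tested did, 17.2% as higher and 17.1% as lower. For none of the 6 did wild-type and knockout values overlap, as for 58.8% of the tested genes, with knockout values above in 28.0% and below in 30.7%. The median log2 fold change was -2.47 over the 6 genes and -0.09 over all tested genes. The genes were proposed with results of these data known, so their count describes them and is no evidence about stemness factors as a class. In bulk samples such as these, fewer cells of a type and less RNA per cell cannot be told apart.

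**Figure D1:**
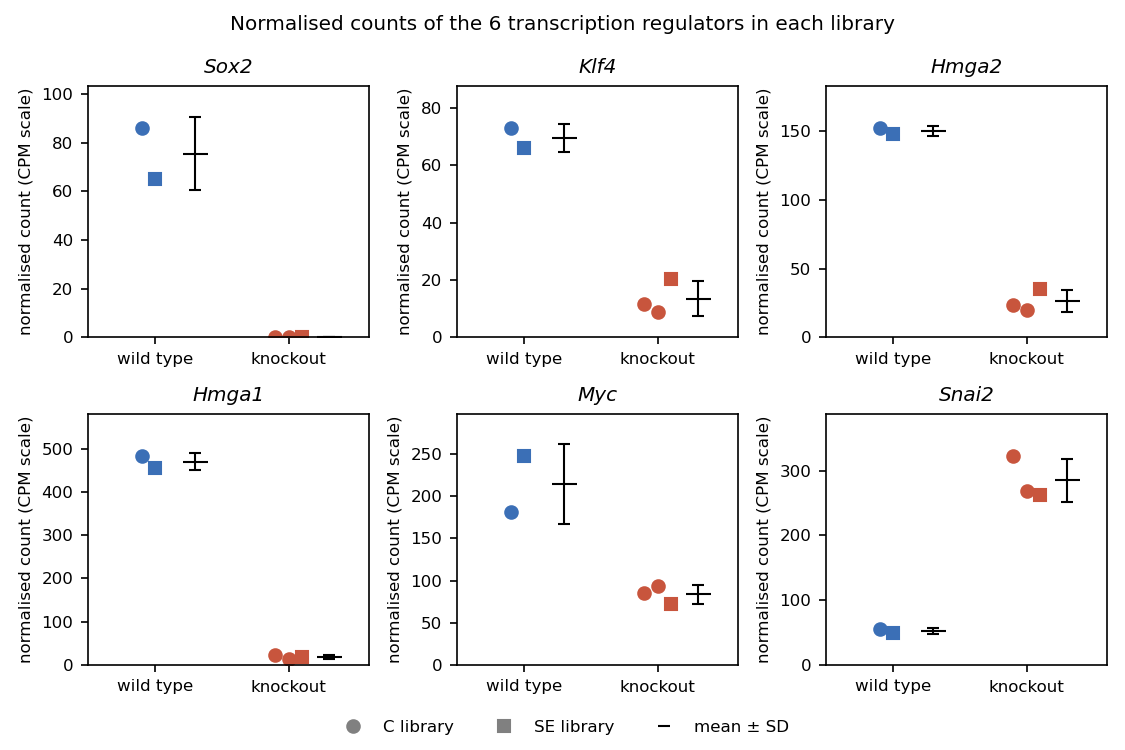
Normalised counts (CPM scale) of the 6 genes in each library. Circles are C libraries, squares are SE libraries, and bars give the mean ± SD of the 2 wild-type (blue) and 3 knockout (red) libraries. Knockout points lie below the wild-type points for 5 genes, at 0 for Sox2, and above them for Snai2.

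The depth behind these values was 13605555 to 26658725 reads assigned to genes per library, lowest in knockout SE. Tnfaip6 itself, the knocked-out gene, stood at 6.04 and 3.21 in wild-type C1 and SE and at 1.65, 2.38 and 1.36 in knockout C1, C2 and SE. Every knockout library was thus lower, but the difference missed the threshold (limma, log2 fold change -1.13, adjusted p = 0.0578), and the labels do not give the deleted stretch. Of 12 markers of mesenchymal stromal cells, 11 were measured. Nt5e, Cd44, Ly6a and Alcam were lower in the knockout, and Cxcl12 was higher. The other 6 did not pass, with log2 fold changes of 2.12 (Pdgfrb), 0.84 (Vcam1), 0.75 (Eng), 0.20 (Prrx1), -0.001 (Itgb1) and -0.96 (Pdgfra). Marker genes of other cell types also differed. Of 9 measured adipocyte markers 7 were higher and none lower, with a summed level of 138 to 178 in wild-type and 4526 to 10928 in knockout libraries. Of 9 smooth muscle markers 8 were higher, with sums of 168 to 212 against 3721 to 7454. Lpl made up most of each adipocyte sum in the knockout (3657 to 8665), and Acta2 most of each smooth muscle sum there (2971 to 6456). The 3 measured mesothelial and epithelial markers (Msln, Krt18 and Krt19, of 11 listed) were all lower, with sums of 321 to 368 against 2.51 to 5.88. Msln made up most of these wild-type sums (277 in C1 and 345 in SE). Among 3 measured neural crest and Schwann cell markers (of 11), S100b and Erbb3 were higher and Pax3 did not pass, with sums of 15.0 to 18.3 against 17.9 to 20.9, and Sox10 was not analysed here. Blood cell markers (4 of 16, with Csf1r and Lyz2 higher and Cd14 lower) and endothelial markers (3 of 11, with Erg lower) summed to at most 94.4 and 6.73 in any library. The blood cell sums hide opposite changes. The mean of Cd14 went from 76.5 to 12.5, that of Lyz2 from 0.0811 to 30.3 and that of Csf1r from 0.279 to 6.34. What part these cell type markers have in the differences of the 6 genes was not tested.

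Promoter sequence was read for the genes that fell together, to show what the stretch before each start holds. RefSeq windows on GRCm38.p6, from 250 bases before to 50 after the start, were at hand for 4 of the 6 genes, Sox2, Klf4, Hmga2 and Hmga1. The 250 bases before the start are printed 5′ to 3′ on the gene's own strand, with capitals for matches on either strand to 6 motifs: CACGTG (the E-box of MYC and MAX), CAGGTG (the E-box of SNAI2), CACCC (a KLF core), ACAAAG (a SOX core), CCAAT (the CCAAT box) and GGGCGG (the GC box). The Sox2 stretch is chr3:34649745-34649994 on the plus strand, that of Klf4 chr4:55532476-55532725 on the minus strand, that of Hmga2 chr10:120476470-120476719 on the minus strand, and that of Hmga1 chr17:27556324-27556573 on the plus strand, before the first of its 2 listed starts.
Sox2: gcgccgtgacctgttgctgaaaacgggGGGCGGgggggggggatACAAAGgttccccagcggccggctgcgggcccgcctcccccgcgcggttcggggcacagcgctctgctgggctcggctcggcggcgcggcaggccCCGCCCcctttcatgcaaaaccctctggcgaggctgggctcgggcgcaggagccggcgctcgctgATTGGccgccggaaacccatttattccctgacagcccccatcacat
Klf4: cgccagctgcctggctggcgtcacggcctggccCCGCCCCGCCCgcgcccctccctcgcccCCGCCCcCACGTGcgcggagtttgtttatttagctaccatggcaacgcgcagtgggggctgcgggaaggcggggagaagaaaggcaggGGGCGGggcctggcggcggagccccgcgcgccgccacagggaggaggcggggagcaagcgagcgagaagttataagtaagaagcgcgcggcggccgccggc
Hmga2: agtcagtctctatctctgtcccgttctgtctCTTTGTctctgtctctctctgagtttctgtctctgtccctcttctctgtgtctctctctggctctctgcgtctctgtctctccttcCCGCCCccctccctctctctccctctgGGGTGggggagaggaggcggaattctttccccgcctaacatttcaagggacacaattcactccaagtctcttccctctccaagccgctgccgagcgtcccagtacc
Hmga1: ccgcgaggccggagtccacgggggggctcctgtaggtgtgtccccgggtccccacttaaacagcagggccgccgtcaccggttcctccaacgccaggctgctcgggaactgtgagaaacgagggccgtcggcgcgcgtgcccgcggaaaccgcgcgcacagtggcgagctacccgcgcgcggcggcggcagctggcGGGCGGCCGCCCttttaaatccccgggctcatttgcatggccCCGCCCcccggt

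The GC box was the motif that all 4 windows held: 2 matches for Sox2, 4 for Klf4, 1 for Hmga2 and 4 for Hmga1, of which 1 lies past the start and is not printed. Of all 32851 RefSeq windows, 35.7% held a GC box. Klf4 held the MYC and MAX E-box once, 182 bases before its start, a motif found in 7.15% of windows. Sox2 and Hmga2 each held the SOX core once (18.7% of windows), Sox2 held the CCAAT box once (37.4%) and Hmga2 the KLF core once (57.5%). None of the 4 held the E-box of SNAI2, which 20.2% of windows hold and whose absence says only that these letters are not in this window. No base lay in matches to different motifs, but the GC boxes of Klf4 at 217 and 212 bases before its start overlap. GC content was 74.3% for Klf4, 74.0% for Hmga1, 66.3% for Sox2 and 57.7% for Hmga2, against a median of 52.7% over all windows. Hmga2 stood apart in another respect: C and T made up 69.0% of its strand, more than in 99.6% of windows, and it held 12 CpG sites where Klf4 and Hmga1 held 40 each. The RefSeq start of Sox2 lies 410 bases before its start in GENCODE M21, and that of Hmga1 lies 77 bases after it. These matches describe the sequence, and no binding was measured.

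Sox2 (ENSMUSG00000074637) is a gene with a single exon at chr3:34650405-34652461, plus strand (GRCm38, as all gene coordinates here). Wild-type C1 and SE had normalised counts of 86.0 and 64.9 (2123 and 1252 reads), against 0 in knockout C1, C2 and SE. Not a single read was assigned to Sox2 in any knockout library, while its wild-type mean of 75.4 ± 15.0 (SD, n = 2) was above that of 73.7% of tested genes. A count of 0 allows up to 3 reads in each library, or normalised counts of 0.141, 0.113 and 0.215, which covers counting error only. Against that floor Sox2 was at least 482-fold lower in the knockout. The fitted log2 fold change was -7.23 (SE 0.29, limma adjusted p = 5.28e-05), a value that depends on the pseudocount and is no bound, and 0.240% of tested genes changed more. Sox2ot, a long non-coding RNA gene on the same strand with Sox2 inside it, had 66 and 23 reads in wild-type C1 and SE and none in the knockout libraries (normalised counts 2.68 and 1.19, adjusted p = 0.00314). Sox2 and Sox2ot share no exon base, though reads of one gene spilling into the other were not tested.

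Klf4 (ENSMUSG00000003032, chr4:55527143-55532466, minus strand) had normalised counts of 73.0 and 66.0 in wild-type C1 and SE, and 11.4, 8.81 and 20.2 in knockout C1, C2 and SE. The highest knockout value, that of SE, was still 3.27-fold under the lowest wild-type value. Means were 69.5 ± 4.98 and 13.5 ± 5.97 (SD, n = 2 and 3), a 5.16-fold fall with a log2 fold change of -2.41 (SE 0.38, limma adjusted p = 0.00431). Compared within suffixes, the log2 difference was -2.80 among C libraries and -1.68 between the SE libraries, of which there is 1 a group. Klf4 was not called when wild-type C1 was left out (log2 fold change -2.33, adjusted p = 0.0748) or when wild-type SE was (-2.48, 0.0683), fits in which the lone wild-type library is taken to vary like the knockout.

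Hmga1 (ENSMUSG00000046711, chr17:27556497-27563674, plus strand) was the most abundant of the 6 in wild-type cells. It had normalised counts of 484 and 456 in wild-type C1 and SE, and 23.5, 14.5 and 18.1 in knockout C1, C2 and SE. Its wild-type mean was above that of 97.7% of tested genes and its knockout mean above that of 41.5%. The means of 469.9 ± 20.0 and 18.7 ± 4.52 differed 25.1-fold, with a log2 fold change of -4.64 (SE 0.26, limma adjusted p = 0.000103), and leaving out any 1 library kept the fold between 22.6 and 28.8. The fall was of the same size in either suffix, -4.67 in the C and -4.61 in the SE libraries. Of the 75-base windows of Hmga1 transcripts, the length of the reads, 46.9% also occur elsewhere in the transcriptome, and how the authors counted reads that match several places was not given, so the size of its fall is uncertain.

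Hmga2 (ENSMUSG00000056758, chr10:120361275-120476469, minus strand) had normalised counts of 152 and 148 in wild-type C1 and SE, and 23.7, 19.7 and 35.0 in knockout C1, C2 and SE. As for Klf4, the SE library was the highest of the knockout. Means were 150.03 ± 3.40 and 26.1 ± 7.95, a 5.74-fold fall with a log2 fold change of -2.54 (SE 0.29, limma adjusted p = 0.00129), between 5.11 and 6.91-fold with any 1 library left out. Within suffixes the log2 difference was -2.79 in the C and -2.06 in the SE libraries. Of its 75-base windows 1.18% occur in another gene, either Gm38158 or the antisense gene 1700006J14Rik, which shares 140 exon bases with Hmga2. Whether the authors' counting used the strand was not given.

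Myc (ENSMUSG00000022346, chr15:61985391-61990374, plus strand) had normalised counts of 181 and 248 in wild-type C1 and SE, and 85.3, 93.3 and 71.7 in knockout C1, C2 and SE. It changed least of the 6, and the nearest values of the groups, 181 and 93.3, were 1.94-fold apart. Means were 214 ± 47.6 and 83.4 ± 10.9, a 2.57-fold fall with a log2 fold change of -1.35 (SE 0.25, limma adjusted p = 0.00739), and 24.8% of tested genes changed more. The log2 difference was -1.01 in the C and -1.78 in the SE libraries. Without wild-type SE, the library with the highest value, Myc was not called (log2 fold change -1.12, adjusted p = 0.0688).

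Snai2 (ENSMUSG00000022676, chr16:14705852-14709385, plus strand) had normalised counts of 55.2 and 49.0 in wild-type C1 and SE, and 323, 269 and 263 in knockout C1, C2 and SE. The lowest knockout value was 4.76-fold above the highest wild-type value. Means were 52.1 ± 4.36 and 284.9 ± 33.2, a 5.47-fold rise with a log2 fold change of 2.44 (SE 0.21, limma adjusted p = 0.000443). The rise was the same in either suffix, 2.41 in both, and lay between 5.10 and 5.81-fold with any 1 library left out. Its knockout mean was above that of 95.1% of tested genes, against 64.5% for its wild-type mean.

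**Figure D2:**
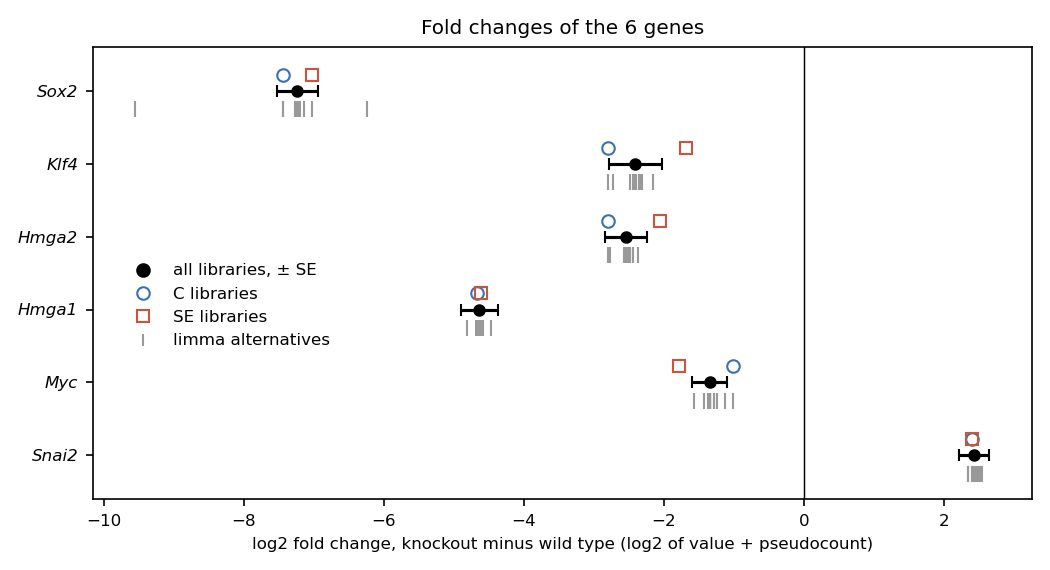
Log2 fold changes of the 6 genes, knockout minus wild type, on log2 of the normalised count plus a pseudocount (0.5 in the main fit). Black points with bars give the estimate ± SE over all 5 libraries, open symbols the difference within C and within SE libraries, and grey ticks the other limma settings; 5 genes lie below 0 and Snai2 above it in all of them.

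Levels of different genes were compared per kilobase of exon (all exons of the gene in GENCODE M21 merged). In wild-type cells Hmga1 came first with a mean of 221 normalised counts per kb, then Myc (78.9), Sox2 (36.7), Snai2 (25.8), Klf4 (22.8) and Hmga2 (22.2). Only Klf4 and Hmga2 had overlapping ranges as neighbours in that order. In knockout cells Snai2 came first (141 per kb), followed by Myc (30.7), Hmga1 (8.81), Klf4 (4.42), Hmga2 (3.86) and Sox2 at 0, and again only Klf4 and Hmga2 overlapped. The ratio of Hmga1 to Hmga2 levels per kb was 10.1 and 9.84 in wild-type C1 and SE and 3.17, 2.34 and 1.65 in knockout C1, C2 and SE. Levels and ratios of Hmga1 are uncertain in size, as 46.9% of its 75-base windows also occur elsewhere in the transcriptome. Myc stood 2.44 and 3.76 times above Snai2 per kb in the wild-type libraries, and its level was 0.196, 0.258 and 0.203 of that of Snai2 in the knockout libraries. The most abundant of these transcripts was thus Hmga1 in the wild type and Snai2 in the knockout, in every library.

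The genes lie on 6 chromosomes, and their neighbours were read to see whether a stretch moved with them. The 2 nearest tested genes on either side are named. For Sox2 these were Sox2ot, described above, and Dnajc19 (log2 fold change 0.43), Atp11b (-0.40) and Dcun1d1 (-0.33), which did not pass. Of the 25 tested genes on either side, 50 in all, 13 were lower and 2 higher, with a median of -0.35 beside -0.32 for all tested genes of chromosome 3, and none fell as far as Sox2. Around Hmga1, 6 of 50 were lower and 3 higher, with a median of -0.26 (chromosome 17: -0.31) and no neighbour as far down. Uqcc2 (-0.52) and Lemd2 (-0.63) on one side of it did not pass, nor did AI413582 (0.53), which overlaps Hmga1 by 102 exon bases on the opposite strand, while Nudt3 beyond it was lower (-1.16, adjusted p = 0.00579). Around Hmga2, 14 of 50 were higher and 4 lower, with a median of 0.34, under the 0.45 of all tested genes of chromosome 10, and none fell as far as Hmga2. Its neighbour Msrb3, a methionine sulfoxide reductase gene 305 kb away, rose from 59.3 to 303 (log2 fold change 2.34, adjusted p = 0.000553), Gm4473 was also higher (1.43), and Tmbim4 (0.96) and Llph (-0.10) did not pass.

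All 4 nearest tested genes of Klf4 were lower with it: Rad23b (log2 fold change -2.63), a DNA repair gene 135 kb away, Zfp462 (-1.63), Ikbkap (-2.09), which encodes an Elongator subunit, and Fam206a (-1.74). Of the 50 genes around Klf4, 25 were lower and 3 higher, with a median of -1.11 beside -0.58 for chromosome 4, and 2 fell as far as Klf4. All 4 neighbours of Myc were lower as well. Among them Pvt1, a long non-coding RNA gene 47.6 kb from Myc, went from 35.1 to 13.4 (-1.35, adjusted p = 0.0103), the log2 change of Myc to 2 decimals, and Trib1 (-1.31), Fam84b (-2.24) and Fam49b (-1.69) lie further off. The 50 genes around Myc did not share this, with a median of -0.19 (chromosome 15: -0.36) and 11 lower against 7 higher, though 10 of them fell as far as Myc. Around Snai2, 22 of 50 genes were higher and 1 lower, with a median of 0.85, close to the 0.82 of all tested genes of chromosome 16, and 2 rose as far as Snai2. Of its nearest genes Fopnl was higher (1.38), and Abcc1 (-0.71), Ube2v2 (0.99) and Mcm4 (-0.01) did not pass. The log2 fold change of Snai2 stood 1.59 above the median of its neighbours, and that of Klf4 stood -1.29 from the median of its own.

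**Figure D3:**
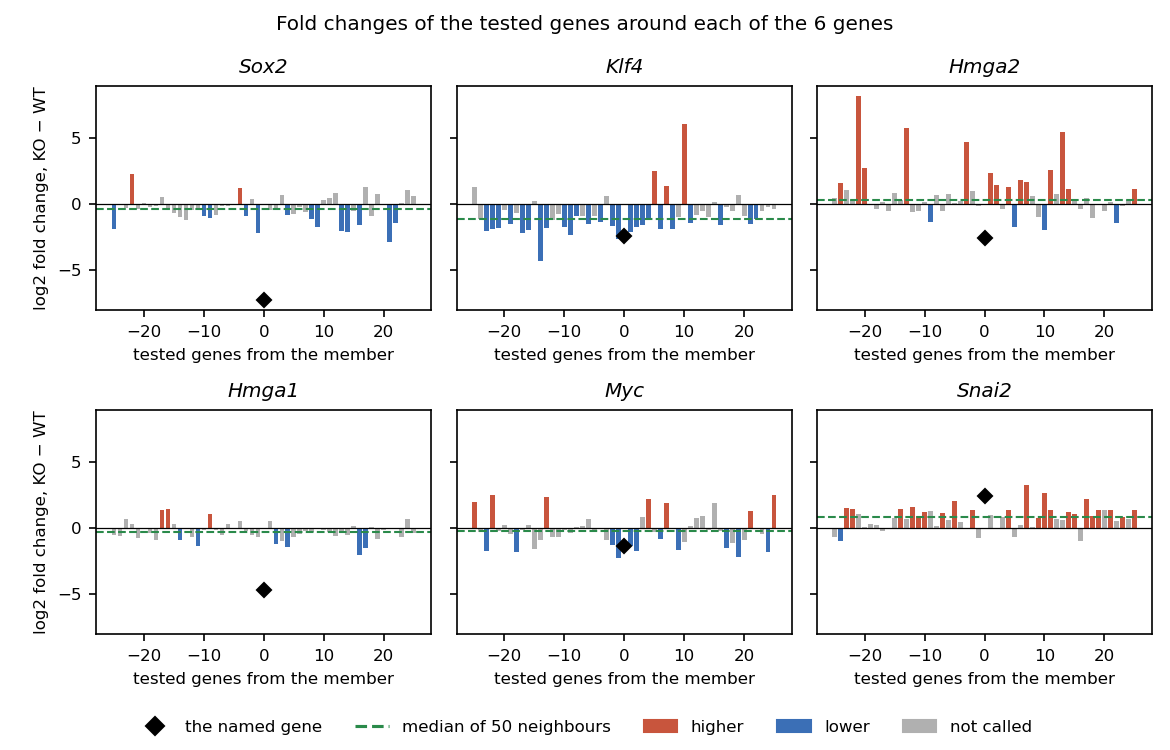
Log2 fold changes (knockout minus wild type) of the 25 tested genes on either side of each of the 6 genes, in chromosome order. Red and blue bars passed the test as higher and lower, grey bars did not, the diamond is the named gene and the dashed line the median of its 50 neighbours. Sox2 and Hmga1 lie far below their neighbours, and Hmga2 lies below all of its own. Most bars around Klf4 point down and most around Snai2 point up.

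Genes with the most similar pattern over the 5 libraries were found by the root-mean-square difference between centred log2 profiles, over 9868 candidate genes, a description that mostly reads the size of the group difference. Of the 6 genes, Klf4 and Hmga2 had each other among their 3 nearest genes, with a difference of 0.132. Both also had Stk38l, a kinase gene, on their lists (0.145 from Klf4 and 0.107 from Hmga2), which Cd248, a stromal surface protein, completed for Klf4 and Ivns1abp for Hmga2. Sox2 was closest to Nefm (0.026) and Nefl (0.073), genes of neurofilament proteins, which had means of 74.9 and 77.7 in the wild type and no read in the knockout. Ptpn22 came next for Sox2 (0.175). Hmga1 was closest to Mef2c (0.210), a muscle and neural transcription factor, Traf1 (0.222) and Grik1 (0.225). Myc was closest to Pdcd7 (0.087), Foxf2 (0.096) and Ergic1 (0.113), and Snai2 to Tlcd2 (0.091), Ckb (0.108), a creatine kinase, and Acy3 (0.109).

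Relatives and partners of the pluripotency factors moved in either direction or did not pass. Of 22 further pluripotency and self-renewal factors 9 were measured, 1 was higher and 2 lower, with a median log2 fold change of 0.46. Over all tested genes 17.2% were higher and 17.1% lower, the shares beside which the counts of this and each later list stand. Tbx3, a T-box factor of stem cells and limbs, fell from 57.7 ± 7.15 to 8.86 ± 3.19 (-2.68, adjusted p = 0.00192), and Sall1 fell from 1.95 ± 0.465 to no read (-2.28, adjusted p = 0.001). Tcf7l1, a Wnt pathway repressor, rose from 22.3 ± 3.81 to 49.8 ± 3.99 (1.15, adjusted p = 0.0128). Tbx3 was lost without wild-type SE (adjusted p = 0.0507), and Tcf7l1 without wild-type C1 (0.0527), wild-type SE (0.0868) or knockout C2 (0.0640), while the higher count was 2 without knockout C1 or SE. Pou5f1 and Nanog were not analysed here.

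Within the SOX family 5 of 18 relatives of Sox2 were measured, 3 of them lower and none higher, with a median of -1.89. Sox5, a regulator of cartilage formation, fell from 54.3 ± 7.39 to 2.34 ± 1.27 (-4.35, adjusted p = 0.00061). Sox9, the master factor of cartilage, fell from 156 ± 40.2 to 21.4 ± 13.4 (-2.97, adjusted p = 0.0046), and Sox4 from 429.9 ± 78.1 to 122 ± 52.8 (-1.89, adjusted p = 0.0112). Only Sox5 was called with either wild-type library left out: Sox9 then had adjusted p = 0.0841 without C1 and 0.0617 without SE, and Sox4 had 0.0860 and 0.121.

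The KLF family went both ways, with 5 of 12 measured relatives of Klf4 higher and 2 lower (median 0.56). Klf5 fell from 73.7 ± 2.75 to 6.38 ± 1.99 (-3.47, adjusted p = 0.000635), and Klf10 fell from 173 ± 7.87 to 70.8 ± 8.0 (-1.29, adjusted p = 0.00515). Klf2, known from endothelium and quiescent T cells, rose from 27.2 ± 24.8 to 228 ± 24.0 (3.41, adjusted p = 0.00578, with 4.48 without wild-type C1 and 2.33 without wild-type SE), and Klf15, a factor of fat and muscle, from 2.68 ± 0.462 to 14.7 ± 4.30 (2.23, adjusted p = 0.00402). With either wild-type library left out the higher count was 1, and without knockout C1 or C2 it was 3. Klf10 was lost without wild-type C1 (adjusted p = 0.0529), and Klf15 without wild-type C1 (0.0641) or SE (0.0517).

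Of 13 other high mobility group proteins measured, 1 was lower and none higher (median -0.24). That gene was Ssrp1, a subunit of the FACT histone chaperone, which went from 433 ± 37.6 to 235 ± 15.1 (-0.88, adjusted p = 0.0198), a call lost without wild-type C1 (0.0716), wild-type SE (0.0987), knockout C1 (0.0698) or knockout C2 (0.0921). In the let-7 and LIN28 axis, which acts on Hmga2, 13 of 18 genes were measured, 1 higher and 1 lower (median -0.48). Igf2bp3, the gene of an RNA-binding protein, rose from 4.53 ± 0.472 to 48.1 ± 7.07 (3.27, adjusted p = 0.00038). Ago2, the slicer of microRNA complexes, fell from 88.2 ± 17.5 to 30.9 ± 5.93 (-1.50, adjusted p = 0.00688). Without wild-type SE Ago2 was not called (-1.30, adjusted p = 0.0799), and without knockout SE the lower count was 3. The microRNAs themselves were not measured by this assay.

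Of 18 measured partners of MYC in its network 5 were lower and 2 higher (median -0.54). Mycl, a paralogue of Myc, went from 7.58 and 12.8 in wild-type C1 and SE to 0.0470, 0 and 0 in the knockout libraries, that is from 435 reads to 1 (-4.33, adjusted p = 0.000219). Ruvbl2, an ATPase of chromatin remodellers that binds MYC, fell from 211 ± 4.81 to 63.6 ± 12.1 (-1.74, adjusted p = 0.00245). Mxd4 rose from 25.5 ± 4.18 to 88.5 ± 5.15 (1.78, adjusted p = 0.00184), and Pim1, a kinase that acts with MYC, from 2.89 ± 0.788 to 24.9 ± 3.00 (2.92, adjusted p = 0.000862). Max itself, at 51.8 ± 9.16 and 70.4 ± 15.4, did not pass (0.43, adjusted p = 0.282). The lower count was 2 without wild-type C1, wild-type SE or knockout C1, and 3 without knockout C2, while the higher count was 2 with any 1 library left out.

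All 30 listed MYC target genes of cell growth were measured, and 20 were lower and 1 higher, where 17.1% of all tested genes were lower. Their median log2 fold change was -1.34, and whether these genes followed the change of Myc was not tested. The list was made up largely of nucleolar genes. Nolc1, a nucleolar chaperone, fell from 293 ± 35.3 to 85.1 ± 18.9 (-1.80, adjusted p = 0.00316), Wdr43 from 228 ± 31.0 to 72.4 ± 5.75 (-1.64, adjusted p = 0.00205) and Bop1 from 276 ± 6.30 to 97.4 ± 11.7 (-1.50, adjusted p = 0.00275). Ccnd2, the cyclin D2 gene, rose from 251 ± 30.6 to 715 ± 53.7 (1.51, adjusted p = 0.0035). The count of lower genes rests on few libraries: it was 3 without wild-type C1, 4 without wild-type SE, 8 without knockout C2 and 12 without both SE libraries. Nolc1 was lost without wild-type C1 (adjusted p = 0.0527).

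Of 13 measured SNAI, ZEB, TWIST and related factors 1 was higher, 4 were lower and 8 did not pass (median 0.08). Among all tested genes 34.3% passed, 17.2% as higher and 17.1% as lower. Tcf4, a basic helix-loop-helix E-protein, fell from 289 ± 32.3 to 81.1 ± 10.9 (-1.83, adjusted p = 0.00164), Twist2 from 34.3 ± 12.7 to 10.5 ± 1.74 (-1.62, adjusted p = 0.0125) and Zeb1, a repressor of E-cadherin, from 82.5 ± 0.698 to 43.6 ± 10.1 (-0.94, adjusted p = 0.0329). Foxc2 rose from 12.0 ± 2.40 to 35.6 ± 9.58 (1.51, adjusted p = 0.0129). Snai1, the closest relative of Snai2, had 6.53 and 10.4 in wild-type C1 and SE and 14.8, 8.32 and 17.0 in knockout C1, C2 and SE, groups that overlap (0.60, adjusted p = 0.295). Without wild-type C1, Zeb1 (adjusted p = 0.153), Twist2 (0.115) and Foxc2 (0.116) were not called. Without wild-type SE neither Zeb1 (0.154) nor Foxc2 (0.0749) was, and Zeb1 was also lost without knockout C1 (0.102) or C2 (0.123) and with quantile normalisation (0.0502). The lower count was 1 without wild-type C1 and 2 without wild-type SE or knockout C2.

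Epithelial genes, the classic targets of SNAI2 repression, split. Of 23 listed 8 were measured, 3 higher and 3 lower (median -0.84). Krt18 fell from 4.78 ± 2.87 to no read (-3.28, adjusted p = 0.00125, with -2.70 without wild-type C1 and -3.87 without wild-type SE). Krt7 rose from 0.129 ± 0.183 to 5.35 ± 1.78 (3.20, adjusted p = 0.00149), Pkp2, a desmosome gene, from 4.46 ± 2.19 to 44.9 ± 10.2 (3.24, adjusted p = 0.00128) and Cldn1, a tight junction gene, from 0.0203 ± 0.0287 to 2.83 ± 1.58 (2.58, adjusted p = 0.00408), the last not called without wild-type C1 (0.0559) or SE (0.0628). The lower count was 1 without wild-type C1. Cdh1, the E-cadherin gene, was not analysed here.

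Mesenchymal products showed 4 of 16 higher and 2 lower, with a median of 0.04, where 17.2% of all tested genes were higher and 17.1% lower. Lox, a collagen crosslinker, rose from 723 ± 216 to 4194 ± 1888 (2.48, adjusted p = 0.00708). Cdh2, the N-cadherin gene, fell from 52.7 ± 7.77 to 14.1 ± 3.37 (-1.89, adjusted p = 0.00459) and Tnc, the gene of the matrix protein tenascin C, from 177 ± 179 to 5.38 ± 6.54 (-5.03, adjusted p = 0.0138). Tnc had 49.9 and 303 in wild-type C1 and SE, and its log2 fold change was -6.32 without C1, -3.73 without SE, -4.35 without knockout C2 and -5.94 without knockout SE. Vim (0.05) and Fn1 (0.02) did not pass. These calls rest on the wild-type pair: without C1, Lox (adjusted p = 0.116), Cdh2 (0.0534) and Tnc (0.0599) were lost, and without SE the same 3 were (0.0743, 0.0740 and 0.150), with higher counts of 1 and 0. Without knockout SE the lower count was 4.

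**Figure D4:**
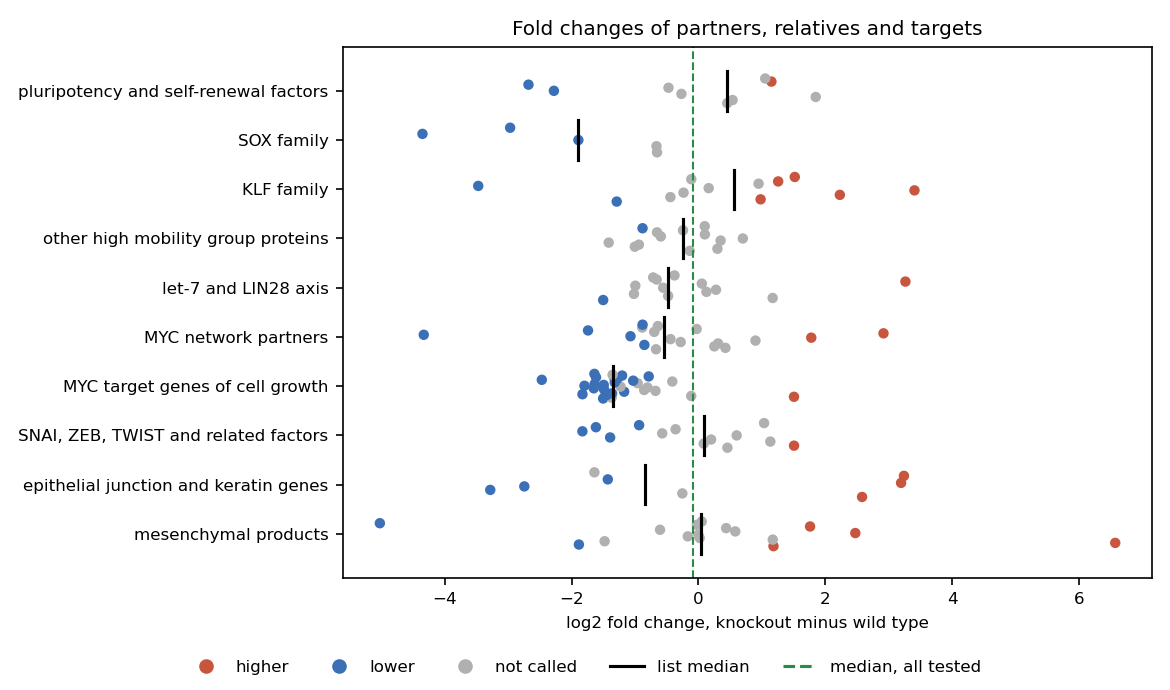
Log2 fold changes (knockout minus wild type) of the measured genes of 10 lists around the 6 genes, each point a gene, red and blue where it passed the test as higher or lower. Black bars are list medians and the dashed line is the median of all tested genes, -0.09. The MYC targets of cell growth lie mostly to the left of that line, and the measured SOX family genes all do. The other lists spread to either side.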

How the data were processed

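Single-end 75 bp reads of 5 stranded poly(A) libraries stand behind the table, per the labels' protocols. The submitters' processing notes name STAR 2.5, edgeR and featureCounts 1.5.2, with no stated role. The authors' genome build is not given in the sources used here. The deposited values are a signal, gene read counts that the authors scaled to column totals between 931660 and 1052926, and 100% of them came back as whole reads to within 0.02. Limma 3.58.1 (R 4.3.3, eBayes with a trend) was run on log2 of the value plus 0.5 over the 12484 genes that reached 1 in 2 or more libraries, with the genotype as its sole term. Benjamini-Hochberg adjustment ran over all of them (threshold 0.05), and fold changes on this scale understate those of low genes. A fold is the ratio of 2 group means. Coordinates came from GENCODE M21 by Ensembl identifier (12607 genes matched, 14 not) and promoters from RefSeq. Ago2 was matched by identifier because its symbol in the table is a number.

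The 6 genes, the lists and the tests were chosen with earlier results of these data known. All 6 genes were named, with up to 4 called genes of smallest p per list, the 2 nearest tested genes on either side and the 3 most similar genes with a mean of at least 5. Max, Snai1, Vim, Fn1 and the cell type markers singled out were chosen after their values were seen, and some genes that the rule took are named nowhere because they are not reported here. Alternatives were 3 rescalings, pseudocounts 0.1 and 1, the filter dropped or raised to 5, other eBayes settings, edgeR 4.0.16 and DESeq2 1.42.0 on the recovered reads, the suffix as a block, and leaving out libraries. The fit was tested on simulated data with known changes.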

Additional observations from a re-analysis of the deposited data

How the results depend on the processing

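No paired analysis was possible because the column names carry no replicate numbers of the sample titles. The column suffix, C or SE, was used as a block in their place. Each of the 6 genes kept its direction in all 18 alternatives. Sox2, Hmga2, Hmga1 and Snai2 were called in all 18, with adjusted p at most 0.0199, 0.0368, 0.0242 and 0.0242. With any 1 library left out, 4 to 6 of the 6 genes were called. Klf4 then had log2 fold changes from -2.73 to -2.15 and was not called without wild-type C1 (-2.33) or SE (-2.48), and Myc had -1.57 to -1.12 and was not called without wild-type SE (-1.12). Genes called higher over the whole table numbered 846 to 2409 with 1 library left out, against 2150, fewest without wild-type SE, 1418 without both SE libraries and 3530 with the suffix as a block. Genes called lower numbered 764 to 2629, against 2129, fewest without wild-type C1, 1404 without both SE libraries and 4038 with the suffix block. The cause was not tested, and a fit with 1 wild-type library has fewer samples. Among the list genes not called without both SE libraries were Sox4 (log2 fold change -1.70), Tcf7l1 (1.01) and Ssrp1 (-0.84). Of 33 list genes that the naming rule took, 17 lost their call in at least 1 alternative, all 17 with a single wild-type library among others, and 1 (Zeb1) in a setting that keeps all libraries; none changed direction.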
